A study of Mus musculus with 80 samples.

Results

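Base editors nick the DNA strand that pairs with the sgRNA, and the alleles described here are deletions that span this nick. They were selected on the alignment of each deposited allele: an allele is a member when a run of deleted bases covers position 17 or 18 of the protospacer, the bases on either side of the nick. Positions are counted from 1 at the 5′ end of the protospacer to 20 next to the PAM, and the tables show a window from position -9 to position 30. Of 11389 allele rows, 545 were members, with 777 of 343154 reads. Members from edited samples made up 541 rows and 773 reads, and 4 rows of 1 read each came from controls. Of the members, 399 rows held a single read, and the largest held 8.

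The samples are mouse Hepa1-6 cells, a hepatoma line, transfected on 96-well plates with an sgRNA against a *Ptbp1* splice site and, except in controls, 1 of 4 adenine base editors, followed by amplicon sequencing of genomic DNA. *Sp*Cas-ABEmax and *Sp*Cas-ABE8e carry the Cas9 of *S. pyogenes*, *Sp*G-ABEmax and *Sp*G-ABE8e a variant that accepts more PAMs, and ABE8e is a deaminase evolved from that of ABEmax. All 4 editors were used at the donors of exons 1, 7 and 8 (sgRNA 1, 6 and 7), and the *Sp*G editors alone at the acceptors of exons 3 and 7 (sgRNA 2 and 5) and the donors of exons 3 and 9 (sgRNA 3 and 9). Each group had 3 samples, in 20 edited groups and 7 control groups, except the exon 7 donor control with 2, and the study describes controls as given the sgRNA. The sgRNA numbers are those of the sample labels, with the site read from the reference sequence in each table, and the guide list of the study numbers the exon 3 and exon 9 guides differently. The labels of sgRNA 1, 2 and 5 write plain ABE for the editor that is not ABE8e, which was taken to be ABEmax. Depth ran from 399 to 18227 reads per sample, with a median of 3799.5, and 2 of 80 samples held fewer than 1000 reads. The study describes the replicates as independent experiments.

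Adenine base editors join a deaminase, which turns adenine into a base read as guanine, to a Cas9 that cuts only 1 strand. The nick lies on the strand opposite the deaminated adenine and steers repair towards the edit. Breaks of both strands at a nick can be rejoined with loss of bases, and a short repeat on each side of the lost segment, called a microhomology, is a known feature of some of these junctions. PTBP1 is an RNA-binding protein that represses exons, and the sgRNAs place the adenine of a splice site in the editing window.

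The sequences of the 7 windows show where the nick falls. All lie in *Ptbp1* (ENSMUSG00000006498.18) on chromosome 10, in the mouse build GRCm39, and are written 5′ to 3′ on the strand of the sgRNA, which is the minus strand at donors and the plus strand at acceptors. The first 10 bases precede the protospacer, the last 10 start with the PAM, and the capitals mark positions 17 and 18, between which the editor nicks the other strand.

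Exon 1 donor, chr10:79690532-79690571: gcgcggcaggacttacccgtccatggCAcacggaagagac
Exon 3 acceptor, chr10:79694569-79694608: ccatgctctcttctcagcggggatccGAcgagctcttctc
Exon 3 donor, chr10:79694634-79694673: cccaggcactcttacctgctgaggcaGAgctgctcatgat
Exon 7 acceptor, chr10:79695598-79695637: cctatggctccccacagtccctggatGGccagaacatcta
Exon 7 donor, chr10:79695765-79695804: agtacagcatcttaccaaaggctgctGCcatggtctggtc
Exon 8 donor, chr10:79696004-79696043: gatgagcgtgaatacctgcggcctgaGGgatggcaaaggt
Exon 9 donor, chr10:79696780-79696819: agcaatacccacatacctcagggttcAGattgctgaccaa

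At each of these sites the protospacer starts in the intron and the nick lies in the exon. In the annotation of GENCODE M39 (transcript ENSMUST00000172282.8), the nick is in coding sequence everywhere except exon 1, where it is in the 5′UTR, 3 bases before the start codon on the gene's strand. The start codon of PTBP1 occupies positions 12 to 14 of that protospacer.

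Edited cells held more of these deletions than controls. Averaged over the 7 sites, 0.223% of reads carried a nick-spanning deletion in 60 edited samples and 0.00783% in 20 controls, a difference of 0.215 percentage points (two-sided permutation test within sgRNAs, p = 0.00031, 0.00062 after Benjamini-Hochberg adjustment over 6 tests). The 4 control reads lay in 4 of 20 samples and 70868 reads, at most 0.0499% of a sample. Among edited samples, 50 of 60 held at least 1 such read. In 13 of 20 groups every edited sample lay above every control of its site, and the mean was higher than in the control in 19. For comparison, the share of reads with a deletion over a given position of the window was separated in this way in 64.5% of the 800 combinations of position and group, so 13 of 20 was near that background, to which the members themselves contribute. With 3 samples against 3 the exact permutation test allows no p below 0.1, and the smallest adjusted p over the 20 groups was 0.2.

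With the *Sp*Cas editors the donor of exon 8 had the highest means. Its 3 *Sp*Cas-ABEmax samples held 1.26%, 0.850% and 0.817% of reads with a nick-spanning deletion (0.977 ± 0.249%, mean ± SD, n = 3), from 71, 60 and 57 reads. With *Sp*Cas-ABE8e the 3 samples held 0.572%, 0.416% and 0.482% (0.490 ± 0.0780%). All 3 ABEmax samples were above all 3 ABE8e samples, a 1.99-fold difference of means. *Sp*G-ABEmax reached 0.476%, 0.190% and 0.220%, and *Sp*G-ABE8e 0.157%, 0.0422% and 0.114%, from 4, 1 and 3 reads. The groups with *Sp*G did not overlap either, with 0.295 ± 0.158% for ABEmax and 0.105 ± 0.0582% for ABE8e. The controls of this site held 0.0329%, 0% and 0%.

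At the exon 7 donor the deaminases were farther apart. *Sp*Cas-ABEmax gave 0.633%, 0.723% and 0.809% (0.722 ± 0.0882%), from 39, 52 and 65 reads, and *Sp*Cas-ABE8e 0.0933%, 0.0834% and 0.0783% (0.0850 ± 0.00760%), from 17, 7 and 7 reads. The mean with ABEmax was 8.49 times that with ABE8e, and no samples overlapped. Target editing ran the other way, at 35.1% of reads with *Sp*Cas-ABEmax and 85.1% with *Sp*Cas-ABE8e. *Sp*G-ABEmax gave 0.346%, 0.477% and 0.355%, and *Sp*G-ABE8e 0.0328%, 0.0730% and 0%, again without overlap. The 2 controls held 0% and 0.0245%.

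The exon 3 donor, tested with *Sp*G editors, showed the same order. *Sp*G-ABEmax gave 0.674%, 0.428% and 0.335% (0.479 ± 0.175%) from 35, 27 and 23 reads, and *Sp*G-ABE8e 0.0900%, 0.0872% and 0.111% (0.0962 ± 0.0133%) from 6, 7 and 7 reads. The lowest ABEmax sample was above the highest ABE8e sample, and the means differed 4.98-fold. No control read of this site was a member. Of these controls 1 had only 399 reads, where a count of 0 allows a share of up to 0.752%.

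At the exon 1 donor the samples of the pairs overlapped. *Sp*Cas-ABEmax gave 0.560%, 0% and 0.844% (0.468 ± 0.429%). The sample at 0% had 599 reads, and 0 of 599 allows a share of up to 0.501%. *Sp*Cas-ABE8e gave 0.141%, 0.213% and 0.165%, all above the controls, which held 0%, 0.0499% and 0%. The *Sp*G editors stayed low, with 0.127%, 0.0617% and 0.0778% for ABEmax and 0.0502%, 0% and 0.160% for ABE8e, each from 0 to 2 reads per sample.

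The remaining sites held few members. At the exon 3 acceptor *Sp*G-ABEmax gave 0.446%, 0.132% and 0.298%, and *Sp*G-ABE8e 0%, 0.0898% and 0.162%. Only 2.20% of reads were edited at the target adenine with *Sp*G-ABEmax there, so that its 18 reads with a nick-spanning deletion amounted to 13.2 per 100 edited reads. By share of reads, the exon 7 acceptor was the exception to the order of the deaminases. *Sp*G-ABE8e gave 0.196%, 0.186% and 0.0749% there, and *Sp*G-ABEmax 0%, 0.0772% and 0%, from 0, 2 and 0 reads. The groups overlapped at this site, where *Sp*G-ABE8e edited the target in 14.6% of reads and *Sp*G-ABEmax in 0.294%. Per 100 edited reads, *Sp*G-ABEmax held 6.67 members there, from only 2 reads, and *Sp*G-ABE8e 1.02, from 29 reads. At the exon 9 donor 5 reads were found with *Sp*G-ABEmax (0.0611%, 0% and 0.0523%) and 0 of 16883 with *Sp*G-ABE8e, which allows a share of up to 0.0178%, although 57.8% of reads with *Sp*G-ABEmax and 73.0% with *Sp*G-ABE8e were edited at the target.

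Across the 10 pairs of groups that differ only in the deaminase, ABEmax had the higher mean in 9, by up to 0.637 percentage points, and the exon 7 acceptor was lower by 0.127 points. Every ABEmax sample was above every ABE8e sample in 5 pairs, and the reverse occurred in 0. The same separation was found for 53.0% of the 400 combinations of window position and pair, so the share of pairs was near this background. The mean over pairs was 0.129% with ABE8e and 0.378% with ABEmax, a difference of -0.249 points in 30 samples against 30 (two-sided permutation test within sgRNA and Cas9 variant, p = 1e-05, the smallest possible with 100000 resamples, adjusted p = 3e-05). For single pairs the smallest exact p was 0.1, the lowest 3 samples against 3 can give. Per 100 reads edited at the target, ABEmax samples held 1.06 nick-spanning deletions, from 563 reads, and ABE8e samples 0.210, from 210 reads, pooled over sites.

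*Sp*Cas editors left more nick-spanning deletions than *Sp*G editors at the 3 sites where both were used. The means were 0.486% and 0.164%, and the difference of 0.321 points had p = 1e-05 in a two-sided permutation test within sgRNA and deaminase, 18 samples against 18 (adjusted p = 3e-05). The mean with *Sp*Cas was higher in 6 of 6 pairs, by 0.0497 to 0.681 points, and the samples did not overlap in 4, all at the donors of exons 7 and 8. Among combinations of window position and pair, 65.0% of 240 were separated in that direction, so 4 of 6 pairs was near that background. Target editing was also higher with *Sp*Cas in every one of these pairs, from 34.0% against 14.1% at exon 1 with ABEmax to 88.7% against 67.6% at exon 8 with ABE8e. Its part in the difference was not tested.

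Deletions in the window that left positions 17 and 18 intact numbered 467 rows and 560 reads. Averaged over sites they made up 0.165% of reads in edited samples and 0.0345% in controls. Nick-spanning deletions made up 59.3% of 1304 deletion reads in edited samples and 12.1% of 33 in controls (exact 95% interval 3.40% to 28.2%). The rise of nick-spanning over other deletions, 0.0844 points, did not pass the permutation test within sgRNAs (p = 0.0994, adjusted p = 0.119). The split differed by deaminase, with 71.8% of 784 deletion reads spanning the nick for ABEmax and 40.4% of 520 for ABE8e. In a comparison chosen after the data were seen, the surplus of nick-spanning over other deletions was lower with ABE8e than with ABEmax by 0.280 points (permutation p = 1e-05, 30 samples against 30). The corresponding surplus was higher with *Sp*Cas than with *Sp*G by 0.156 points (permutation p = 0.00808, 18 samples against 18). Both measures contain the nick-spanning shares already compared above, so neither is separate evidence of a change in the split. Neither p was adjusted.

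A rule that asks for a given base to be deleted favours long deletions, and most members were long. In the window they removed 1 to 40 bases, with a median of 35 over edited reads, and 270 of 773 reads (34.9%) lacked the whole window. Another 239 reads reached the PAM-distal edge only and 101 the PAM-proximal edge only, of which 15 had no deleted base beyond it, and 163 (21.1%) lay inside the window. The number of deleted bases deposited for each allele includes bases outside the window. In *Sp*Cas-ABE8e replicate 1 of the exon 7 donor 0 reads had deleted bases outside the window only, against 717 in the other tables, but its 4 member rows that met an edge had more deleted bases than the window shows, and it was kept. This full length had a median of 43 bases over the 773 reads, with 80 reads (10.3%) under 20 bases and 10 reads of 1 base. The longest deletion had 77 bases. At each site the longest was 29.5% to 36.5% of the amplicon, whose primers lie as near as 14 bases to the nick at the exon 9 donor and 30 bases at the donors of exons 1 and 8, all on the PAM side. Whether longer deletions were lost at the primers or in the alignment was not tested.

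As aligned, the deletions reached farther into the intron side than past the PAM. At an equal reach of 13 bases from the nick, 662 reads (85.6%) included position 5 on the PAM-distal side and 371 reads (48.0%) position 30 on the PAM-proximal side. Both were covered in 332 reads, the distal side alone in 330, the proximal side alone in 39 and neither in 72. The distal side alone outnumbered the proximal side alone at all 7 sites, from 106 against 18 reads at the exon 7 donor and 120 against 12 at the exon 8 donor to 4 against 0 at exon 9. The primer was nearer on the PAM-proximal side at the donors of exons 1, 7, 8 and 9, and on the PAM-distal side at both acceptors and the exon 3 donor. The distal side alone had 11 reads against 4 at the exon 3 acceptor, 14 against 3 at the exon 7 acceptor and 50 against 2 at the exon 3 donor. The part of primer distance in the difference between the sides was not tested.

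On the PAM side many edges, as aligned, lay close to the nick. Of 402 edited reads whose last deleted base lay inside the window, 231 (57.5%) ended at positions 17 to 22, with 50 at position 17, 31 at 18, 23 at 19, 46 at 20, 47 at 21 and 34 at 22, and 171 ended at positions 23 to 29. Of 264 reads whose first deleted base lay inside the window, 37 began at the 6 positions 13 to 18. For positions 17 and 18 alone, the shares were 20.1% of last deleted bases and 6.44% of first deleted bases. By the selection and the window, a last deleted base counted here could lie only at positions 17 to 29. A first deleted base could lie anywhere from position -8 to 18, a longer stretch. The shares of the last and first deleted bases therefore cannot show whether edges lay closer to the nick on the PAM side. The edges are also those of the deposited alignment, and a deletion between repeats can be aligned at other positions. The 28-base deletion of the exon 8 donor that ends at position 17 can be shifted by 5 bases towards the PAM. How far the placement moved the edges was not tested. At the limits of the selection, 50 member reads ended at position 17 and 5 began at 18, while 29 reads of other deletions ended at position 16 and 6 began at 19. A deletion across both bases was carried by 718 edited reads.

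Length did not separate the deaminases over all pairs. The mean deleted length in the window was 30.6 bases in 10 ABE8e samples and 31.5 bases in 11 ABEmax samples with at least 5 member reads, a difference of -0.877 bases (two-sided exact permutation test in 4 pairs, p = 0.766), which does not show that they were alike. At the exon 7 donor *Sp*Cas-ABE8e samples averaged 21.9 bases (18.3 to 24.4) and *Sp*Cas-ABEmax samples 33.6 (32.5 to 34.2), without overlap. At the exon 8 donor the corresponding values were 32.7 (30.6 to 35.1) and 33.7 (32.9 to 34.6), which overlapped. At the exon 3 donor *Sp*G-ABE8e averaged 31.8 and *Sp*G-ABEmax 31.2. The exon 1 donor ran the other way from exon 7, with 36.2 bases in the 1 *Sp*Cas-ABE8e sample that could be used and 27.6 (23.6 to 31.5) in 2 *Sp*Cas-ABEmax samples. The whole window was missing in 4 of 31 *Sp*Cas-ABE8e reads and 59 of 156 *Sp*Cas-ABEmax reads at exon 7, and in 44 of 99 and 78 of 188 at exon 8.

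Few deletions recurred. The edited reads held 202 distinct pairs of first and last deleted positions in the window, of which 134 were seen in a single sample and 33 in at least 3. Loss of the whole window ranked first at 6 of 7 sites, at the exon 3 acceptor in a tie with 9 to 30. It held 140 reads in 10 samples at the exon 8 donor, 77 reads in 8 samples at the exon 7 donor and 31 reads in 5 samples at the exon 3 donor. At the exon 1 donor it held 12 reads, at the exon 7 acceptor 5 and at the exon 3 acceptor 4. A pair that meets a window edge can pool different deletions. Loss of the whole window held 25 different full lengths at the exon 8 donor and 20 at the exon 7 donor. At the exon 8 donor the next were -9 to 17 with 25 reads and -9 to 21 with 18, and at the exon 7 donor -9 to 20 with 26 reads and -9 to 27 with 15. At the exon 3 donor -9 to 21 followed with 13 reads and -9 to 19 with 6. At the exon 1 donor -9 to 20 held 7 reads and -9 to 29 held 3, and at the exon 3 acceptor 9 to 30 held 4 and 0 to 26 held 3. At the exon 7 acceptor -9 to 19 held 3 reads and -9 to 21 held 2. At the exon 9 donor -9 to 29 held 2 reads and -9 to 21 and the whole window 1 each. In all of these but 9 to 30 the target adenine was deleted. The largest single row of any sample held 8 reads, 0.142% of *Sp*Cas-ABEmax replicate 1 at the exon 8 donor, with the deletion -9 to 17. At the other sites the largest row held 2 to 6 reads.

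For deletions that met 1 edge of the window, the hidden end was placed by taking the deposited number of deleted bases as 1 continuous run, and deletions that differ only in how equal bases are aligned were joined. This placed 502 of 773 edited reads (64.9%) in 279 distinct deletions. The 13 deletions longer than 1 base that reached 5 reads, chosen after their counts were seen, are written with 10 bases on each side, on the sgRNA strand, with the deleted bases in capitals.

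Exon 3 donor -12 to 21, chr10:79694643-79694676: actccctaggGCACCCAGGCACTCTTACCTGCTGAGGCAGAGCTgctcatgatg
Exon 3 donor 8 to 18, chr10:79694646-79694656: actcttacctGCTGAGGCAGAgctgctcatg
Exon 7 donor -20 to 20, chr10:79695775-79695815: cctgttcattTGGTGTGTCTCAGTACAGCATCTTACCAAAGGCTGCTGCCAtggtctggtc
Exon 7 donor -14 to 27, chr10:79695768-79695809: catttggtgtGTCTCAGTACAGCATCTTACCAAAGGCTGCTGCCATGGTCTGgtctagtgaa
Exon 7 donor -14 to 22, chr10:79695773-79695809: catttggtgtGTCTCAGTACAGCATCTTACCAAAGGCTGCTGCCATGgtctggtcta
Exon 7 donor 0 to 28, chr10:79695767-79695795: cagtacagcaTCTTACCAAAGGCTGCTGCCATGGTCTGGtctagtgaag
Exon 8 donor -10 to 17, chr10:79696017-79696044: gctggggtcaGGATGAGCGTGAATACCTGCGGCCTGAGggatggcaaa
Exon 8 donor -10 to 21, chr10:79696013-79696044: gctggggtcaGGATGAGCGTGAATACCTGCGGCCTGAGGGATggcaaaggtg
Exon 8 donor -6 to 32, chr10:79696002-79696040: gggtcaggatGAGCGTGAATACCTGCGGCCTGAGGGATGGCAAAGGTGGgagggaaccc
Exon 8 donor -34 to 28, chr10:79696006-79696068: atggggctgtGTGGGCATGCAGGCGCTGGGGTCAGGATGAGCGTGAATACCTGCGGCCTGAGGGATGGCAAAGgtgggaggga
Exon 8 donor -18 to 20, chr10:79696014-79696052: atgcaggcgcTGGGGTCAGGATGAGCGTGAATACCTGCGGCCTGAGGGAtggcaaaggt
Exon 8 donor -11 to 26, chr10:79696008-79696045: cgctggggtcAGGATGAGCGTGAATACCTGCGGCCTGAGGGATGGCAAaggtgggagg
Exon 8 donor -2 to 28, chr10:79696006-79696036: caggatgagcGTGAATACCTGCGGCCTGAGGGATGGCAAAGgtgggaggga

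These 13 deletions show repeats at their edges. In each, the deletion begins with bases that also follow it directly, so that 1 copy of the repeat is lost with the segment and the other kept. The most frequent, at the exon 8 donor, removed 28 bases with 1 of 2 copies of GGATG and was read 23 times in 7 samples of 3 groups, 16 with *Sp*Cas-ABEmax, 5 with *Sp*Cas-ABE8e and 2 with *Sp*G-ABEmax. The loss of 41 bases at the exon 7 donor with a copy of TGGT was read 14 times in 7 samples, and that of 42 bases with a copy of GTCT 14 times in 5 samples. The deletion of 37 bases at this site starts at the same GTCT and ends at another copy, and was read 7 times in 3 *Sp*Cas-ABEmax samples. At the exon 3 donor 11 bases with a copy of GCTG were lost in 5 reads, a deletion that lies in the exon alone and leaves the splice site. The only other distinct deletion of 5 or more reads was a loss of a single G at position 17 of the exon 8 donor, read 6 times in 3 edited samples. The 1 member read of the exon 8 controls was this same deletion.

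Over all placed deletions of at least 2 bases, 291 of 492 reads (59.1%) and 127 of 275 distinct deletions (46.2%) had a microhomology of 2 bases or more. The longest was 7 bases, at a deletion of 28 bases at the exon 7 donor that was read 2 times. Among deletions inside the window this held for 32 of 97 distinct deletions (33.0%), and among those that met 1 edge for 95 of 178 (53.4%). Of all distinct deletions that the 7 sequences allow, 8.58% of 1877 inside the window and 8.24% of 10432 meeting 1 edge, up to the longest length seen, have such a repeat. Deletions in the window away from the nick had it in 29 of 152 distinct cases (19.1%). These shares are a description, since reads of 1 deletion are not independent and no test was made.

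By site the share of placed reads with a microhomology was 65.7% of 178 at the exon 8 donor, 60.4% of 159 at the exon 7 donor, 62.2% of 74 at the exon 3 donor and 68.4% of 19 at the exon 3 acceptor, against 18.2% of 33 at the exon 1 donor. It was 44.0% of 25 at the exon 7 acceptor, and only 4 reads were placed at exon 9. The exon 1 donor thus stood lowest, and its most frequent placed deletion had no repeat. It was a loss of 34 bases, read 4 times in 1 sample.

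Exon 1 donor -13 to 20, chr10:79690542-79690575: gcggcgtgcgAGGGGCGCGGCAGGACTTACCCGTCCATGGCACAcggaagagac

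At the exon 3 acceptor 27 bases with a copy of GCTCT were lost in 3 reads, 1 in each *Sp*G-ABEmax sample. It is the deletion named above as 0 to 26, written here at another of its equivalent positions.

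Exon 3 acceptor -5 to 21, chr10:79694573-79694599: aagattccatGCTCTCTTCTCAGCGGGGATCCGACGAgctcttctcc

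Over sites the share with a microhomology was 66.4% of 351 placed reads for ABEmax and 41.1% of 141 for ABE8e, and 104 of 199 (52.3%) and 41 of 98 (41.8%) of the distinct deletions. The sites contribute to the deaminases in unequal amounts, and this difference was not tested.

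Most members removed the splice site itself. Of 773 edited reads, 665 (86.0%) lacked at least 1 of the 2 intronic bases next to the exon, and 658 (85.1%) lacked the target adenine. The share that lost the target ran from 67.7% of 31 reads at the exon 7 acceptor to 90.7% of 324 at the exon 8 donor, and was 5 of 5 reads at exon 9. At the exon 1 donor 43 of 46 reads lacked a base of the start codon. In 108 reads both intronic bases were left. In 2 of these, at the exon 3 donor, the deposited length of 69 bases, taken as 1 run, reaches past the other end of the exon. Of the 100 reads outside exon 1 whose deletion stayed in the exon, 81 (81.0%) removed a number of bases that is not a multiple of 3. Of any 3 consecutive lengths 2 are no multiple of 3, and reads of 1 deletion were counted each time, so this share is a description.

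In 115 edited member reads the target adenine was left in place, and the base there was read as guanine in 28 (24.3%, Wilson 95% interval 17.4% to 32.9%) and as adenine in 87. This interval treats the pooled reads as independent and leaves out the spread between samples and sites. Reads without a deletion in the same samples, weighted by these 115 reads, had guanine in 58.3%. In the 8 samples with at least 5 such reads, the mean was 39.6% on reads with a nick-spanning deletion and 64.3% on reads without a deletion. The difference of -24.7 points had p = 0.0391 in an exact two-sided sign-flip permutation test over the 256 arrangements, n = 8 samples, and adjusted p = 0.0586, which does not pass the threshold. It was lower in 7 of 8 samples. Leaving out the *Sp*Cas-ABE8e sample of the exon 7 donor whose deletion counts differ in kind gave -22.4 points (exact permutation p = 0.0781, n = 7).

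The sites differed in these reads. At the exon 7 donor *Sp*Cas-ABEmax had guanine in 0 of 14 member reads that kept the target, against 35.5% of reads without a deletion, and *Sp*Cas-ABE8e in 4 of 18 against 83.0%. *Sp*G-ABEmax and *Sp*G-ABE8e added 0 of 9 and 0 of 3 there. At the exon 3 donor *Sp*G-ABEmax had 5 of 18 against 72.1%. At the exon 8 donor the values were higher, with 8 of 9 against 89.5% for *Sp*Cas-ABE8e and 9 of 18 against 77.3% for *Sp*Cas-ABEmax. The loss of a single G aligned at position 17 made up 4 of these *Sp*Cas-ABE8e reads and 1 of the *Sp*Cas-ABEmax reads. Over all editors of the site it was read 6 times, 5 with guanine at the target, and it was also the 1 member read of the controls. In *Sp*Cas-ABEmax replicate 3 of that site, the 1 of the 8 tested samples that ran the other way, 6 of 6 reads had guanine against 75.9%. The exon 7 acceptor had 0 of 10 against 14.1% with *Sp*G-ABE8e. Other deletions that kept the target carried guanine in 102 of 251 reads (40.6%), where the weighted share of reads without a deletion was 57.7%.

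The members that kept the target had a median of 14 deleted bases in the window and at most 26, a limit that the window sets. Their full length could be greater, as at the exon 3 donor, with 70 bases for 5 to 30 and 69 for 16 to 30. In the window, those with guanine had a median of 13.5 bases and those with adenine 14, and both had a median first deleted position of 10. Counting guanine at any adenine of the protospacer that the deletion left, 35 of 178 edited member reads carried an edit.

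The number of member reads limits these values. Only 1 of 545 rows reached 0.2% of the reads of its sample, and with rarer rows left out the difference between edited samples and controls was 0.00301 points (permutation p = 1.0), that between ABE8e and ABEmax -0.00844 (p = 1.0) and that between *Sp*Cas and *Sp*G 0.0141 (p = 1.0). No molecular identifiers are described for these reads, and copies made in the PCR cannot be told from separate molecules, so the intervals and the limits for a count of 0 cover counting error only. The aligner can place a gap at several equivalent positions. Of 163 edited reads inside the window, 118 had another placement and 10 a placement off the nick, and allowing any placement would add 26 reads in edited samples and 0 in controls.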

How the data were processed

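Genomic DNA of Hepa1-6 cells was amplified around each *Ptbp1* target, sequenced on a MiSeq and aligned by the authors with CRISPResso2, whose version, parameters and genome build are not given in the sources used here. The authors deposited 1 table per sample, with the count of reads of each allele, the percent of reads it makes up, and the numbers of deleted, inserted and substituted bases, for a window of 40 bases. No values were normalized beyond that percent. Deposited aligned sequences were reverse-complemented at sgRNA 1, 3, 6, 7 and 9, and deletion runs covering position 17 or 18 were selected. The members, the lists and the tests were chosen with earlier results of these data known. Of each site, the 3 deletions with the most reads and the largest single row are named, and other deletions were chosen after their counts were seen.

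Shares are member reads over all reads of the table. The sample was the unit of tests between groups, grouped from the labels. Differences were averaged over strata and tested by permuting labels within strata (100000 resamples or, where fewer, all arrangements), with Benjamini-Hochberg adjustment over 6 tests, and over 20 for single groups. Intervals are Wilson or exact at 95%, and a count of 0 allows 3 reads. A microhomology is the number of bases by which a deletion can be shifted without changing the sequence, here at least 2. Windows and exons were placed in GRCm39 with GENCODE M39. The amplicon ends come from the primers of the study. Python 3.11.15, numpy 2.4.6 and scipy 1.17.1 were used, and the reading of deletions and the permutation test were tested on simulated data. No tables were identical. Alternatives covered the definition of a member, minimum reads, scale, shallow samples, each replicate and the replicate number as a block.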

Additional observations from a re-analysis of the deposited data

How the results depend on the processing

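Settings are compared by the permutation p before adjustment, at a threshold of 0.05. The differences of edited samples from controls, of ABE8e from ABEmax and of *Sp*Cas from *Sp*G kept their direction and passed this threshold in all alternatives run but 1 each. With only alleles of at least 0.2% of reads, they were 0.00301, -0.00844 and 0.0141 percentage points with permutation p = 1.0, because 1 of 545 rows remained, and 0 of 20 groups had every edited sample above every control, against 13. With alleles of at least 2 reads only, they were 0.102, -0.137 and 0.188 points and 9 groups were separated. The surplus of nick-spanning over other deletions in edited samples passed with alleles of at least 2 reads only (0.0676 points, permutation p = 0.0404) and with deletion runs of at least 2 bases only (0.0981 points, permutation p = 0.0427), against p = 0.0994. Leaving out each replicate number gave 0.195 to 0.235 points for edited samples against controls, -0.286 to -0.210 for ABE8e against ABEmax, 0.293 to 0.362 for *Sp*Cas against *Sp*G, 0.0701 to 0.0990 for the surplus over other deletions, and 14 to 16 separated groups.

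Target A-to-G on reads with a nick-spanning deletion was lower in all alternatives. It no longer passed with deletions covering both positions 17 and 18 (-28.1 points, exact permutation p = 0.0625, n = 6 samples), with alleles of at least 2 reads (-29.6, exact permutation p = 0.25, n = 3), without *Sp*Cas-ABE8e replicate 1 of the exon 7 donor (-22.4, exact permutation p = 0.0781, n = 7) and with at least 10 reads per sample (-40.6, n = 1, where no test can pass). Leaving out replicates gave -30.9 to -20.0, and the call was lost without replicate 1 (exact permutation p = 0.188, n = 5) and without replicate 2 (exact permutation p = 0.188, n = 5). Group means as the unit gave -24.5, any adenine of the protospacer -46.1, and at least 3 reads per sample, chosen after the data were seen, -32.4 (permutation p = 0.00063, 17 samples). The difference in length between ABE8e and ABEmax reversed to 0.442 bases without replicate 1 and ran from -3.94 to 0.442 over the replicates left out. At least 10 reads per sample gave -5.74 bases (exact permutation p = 0.0625), and the deposited number of deleted bases -2.86. With alleles of at least 0.2% of reads, neither value could be computed.

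Replicate numbers did not pair the samples. Same-numbered samples of a site had deviations from their group means, over 80 measures per window, that correlated above 0.1 in 46 of 122 pairs, with a median r of -0.0389. With labels permuted within the replicate number as a block, the differences were 0.209 for edited samples against controls (permutation p = 0.00079), -0.249 for ABE8e against ABEmax (permutation p = 5e-05), 0.321 for *Sp*Cas against *Sp*G (permutation p = 3e-05), 0.0808 for the surplus over other deletions (permutation p = 0.103) and -2.38 bases for length (permutation p = 0.377), so that the block changed no call. Depth limits the groups with 0 to 3 member reads per sample, where 1 read moves the share by a large part of its value.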
